A study of Mus musculus with 12 samples.

Results

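The Rag locus on chromosome 2 of the mouse holds Rag1 and Rag2, the genes for the recombinase that assembles antigen receptors. Its DNA accessibility was read from DNase-seq peak lists of 12 libraries, over the gene pair and 150 kb on either side of it (mm10, chr2:101474718-101799501). Merging all peaks that overlapped by at least 1 bp gave 46 DNase I hypersensitive sites (DHSs) at the locus, of 170207 on the autosomes and the X chromosome. They are numbered here from site 1 to site 46 in order along the chromosome.

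The study followed mouse haematopoietic progenitors into the T lineage under the Notch ligand Delta1 and asked how promoter accessibility relates to Notch signal strength. There were 3 libraries of LSK cells, lineage-negative SCA1+ KIT+ progenitors freshly isolated from the marrow of C57BL/6J mice, whose age is not given in the sources used here. Delta1 culture of LSK cells gave 2 libraries each of DN1 (KIT++ CD44+ CD25-), DN2a (KIT++ CD44+ CD25+) and DN2b (KIT+ CD44lo CD25+) cells. DN1 cells came from cultures with SCF, FLT3L, IL-6 and IL-11, and the DN2 cells from cultures that had IL-7 as well. Effects of IL-7 and of stage cannot be told apart between DN1 and DN2. The 3 IgG libraries are LSK cells cultured on human IgG with no Notch ligand. The study's methods name IL-7 for Delta1 cultures only, so ligand, IL-7 and stage cannot be told apart between DN2 and IgG. No genetic change is given for these samples, and the DN cells were made in culture and not taken from a thymus. By the study's methods the replicates of a group come from separate LSK isolates. The DN populations were sorted in turn from cultures of such isolates, so libraries of different groups can share one, and every test below treats them as independent.

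RAG1 and RAG2 act as one enzyme that cuts DNA at the recombination signals beside V, D and J segments of the immunoglobulin and T cell receptor genes. The genes lie close together and are transcribed towards each other, so their 3′ ends face across a short gap. Upstream of Rag2 lie known distal elements. Erag is an enhancer used mainly in the B lineage, the D3 region is another upstream enhancer region, and the anti-silencer element, farther out, counters a silencer that lies between the genes in developing T cells. Windows for these elements were set wide, from approximate distances, and a DHS inside a window is not shown to be the element itself.

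Rag2 occupies chr2:101624718-101632529 on the plus strand (ENSMUSG00000032864.4) and Rag1 occupies chr2:101638282-101649501 on the minus strand (ENSMUSG00000061311.6), in GENCODE M21. A gene of uncertain role here, B230118H07Rik (ENSMUSG00000027165.16), spans chr2:101560781-101649532 on the minus strand and covers both. Traf6, which encodes a ubiquitin ligase of innate immune signalling, and Prr5l, which encodes a binding partner of the mTORC2 kinase complex, follow on the Rag1 side.

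**Figure D1:**
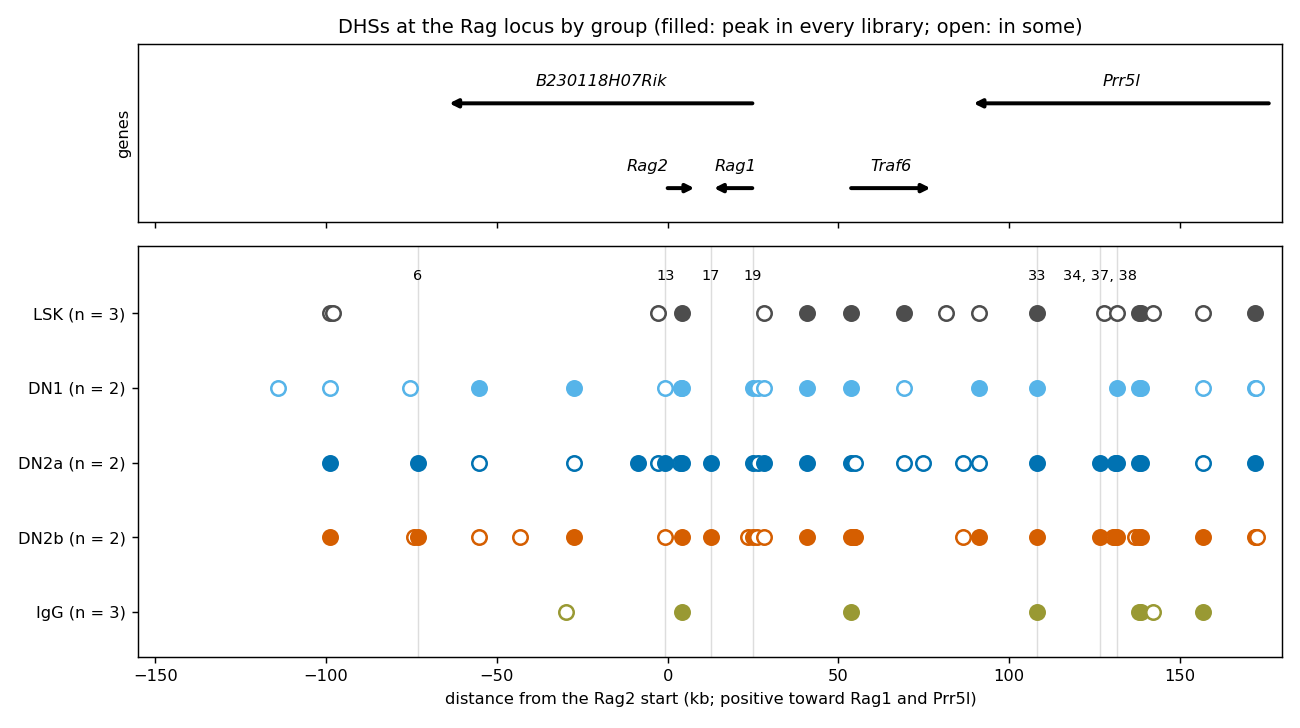
The locus drawn by distance from the Rag2 start in kb, with genes as arrows in the direction of transcription (Prr5l runs past the right edge) and, below, 1 row per group in which each circle is a DHS. Filled circles are DHSs with a peak in every library of the group and open circles those with a peak in some; the DHSs numbered 6, 17, 34 and 37 are filled in DN2a and DN2b and missing from the LSK, DN1 and IgG rows.

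The sequences of 6 DHSs are shown because the results below turn on them. Each is the central 150 bp of the DHS on the plus strand of GRCm38.p6 (RefSeq), the assembly behind mm10. Capitals mark matches, on either strand, to 8 short motifs that were searched: the E-boxes CAGCTG and CAGGTG, the RUNX motif TGTGGT, the GATA motif AGATAA, the TCF1/LEF1 motif CTTTGA, the RBPJ motif TGGGAA, the ETS motif ACAGGAA and the Ikaros-like motif GGGGAA. Matches in the sequences below do not overlap each other. A match is a description of the letters and not a shown binding site. Site 6 lies at chr2:101551437-101551646 in the anti-silencer window, site 13 at chr2:101623977-101624166 by the Rag2 promoter, site 17 at chr2:101637177-101637366 between the 3′ ends, site 19 at chr2:101649537-101649726 at the Rag1 promoter, and sites 34 and 37 at chr2:101751337-101751506 and chr2:101755497-101755666 in introns of Prr5l.
site 6, chr2:101551467-101551616: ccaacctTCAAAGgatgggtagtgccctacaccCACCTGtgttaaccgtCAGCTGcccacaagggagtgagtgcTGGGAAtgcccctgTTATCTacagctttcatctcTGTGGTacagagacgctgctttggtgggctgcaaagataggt
site 13, chr2:101623997-101624146: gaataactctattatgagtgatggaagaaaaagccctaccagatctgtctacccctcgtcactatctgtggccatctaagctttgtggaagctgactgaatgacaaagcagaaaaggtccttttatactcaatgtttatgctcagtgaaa
site 17, chr2:101637197-101637346: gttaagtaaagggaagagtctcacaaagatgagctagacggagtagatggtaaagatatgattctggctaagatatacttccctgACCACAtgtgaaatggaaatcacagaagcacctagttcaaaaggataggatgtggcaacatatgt
site 19, chr2:101649557-101649706: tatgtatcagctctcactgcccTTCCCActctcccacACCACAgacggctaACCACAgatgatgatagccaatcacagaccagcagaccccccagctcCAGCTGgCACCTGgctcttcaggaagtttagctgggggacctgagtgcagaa
site 34, chr2:101751347-101751496: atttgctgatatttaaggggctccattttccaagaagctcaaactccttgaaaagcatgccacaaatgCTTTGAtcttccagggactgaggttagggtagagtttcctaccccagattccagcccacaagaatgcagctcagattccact
site 37, chr2:101755507-101755656: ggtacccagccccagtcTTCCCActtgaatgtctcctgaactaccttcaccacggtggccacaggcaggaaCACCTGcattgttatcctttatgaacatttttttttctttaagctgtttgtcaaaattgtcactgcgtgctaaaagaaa

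Site 6, in the anti-silencer window, held 6 of the 8 motifs, with 1 match each to both E-boxes and to the RUNX, GATA, TCF1/LEF1 and RBPJ motifs. Of all 170207 DHSs, 15 (0.00881%) held at least 6 of them in a window of the same length. The Rag1 promoter, site 19, held 4 of the 8. Its 2 E-boxes, CAGCTG at chr2:101649655-101649660 and CAGGTG on the minus strand at chr2:101649662-101649667, stand next to each other, and it also had 2 matches to TGTGGT and 1 to TGGGAA. At least 4 motifs were held by 2108 DHSs (1.24%), and at the locus by sites 6 and 19 alone. Site 17 had 1 match to TGTGGT, site 34 had 1 to CTTTGA, site 37 had 1 each to CAGGTG and TGGGAA, and none of the 8 strings occurred in the central 150 bp of site 13. Single motifs were common, present in 11.5% (CAGCTG), 12.8% (CAGGTG), 23.1% (TGTGGT), 8.25% (AGATAA), 11.2% (CTTTGA), 12.8% (TGGGAA), 10.7% (ACAGGAA) and 14.5% (GGGGAA) of all DHSs. The GC content was 56% in site 19 and 53.3% in site 6, against 40% in site 17 and a median of 49.3% over all DHSs.

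Accessibility at each site is given below as a percentile, the rank of its peak among all peaks of the same library by the deposited score, where 100 is the highest and 0 means that no peak was called. The lists held 32952 to 111582 peaks on these chromosomes, and read depth is unknown. A peak absent from a short list (IgG, 32952 to 37511 peaks) is therefore weaker evidence than one absent from a long list (DN2b replicate 2, 111582 peaks). For that reason values are also given at equal list lengths, where each list was cut to its 32952 highest-scoring peaks and the percentiles were computed anew. At equal lengths 17 of the 46 sites still had a peak in some library.

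The number of peaks called at the locus was lowest in IgG and highest in DN2b. LSK libraries had 12, 10 and 17 peaks, a mean of 13 ± 3.61 (SD, n = 3). The DN1 libraries had 22 and 13 (17.5 ± 6.36, SD, n = 2), and DN2a had 25 and 20 (22.5 ± 3.54, SD, n = 2). The DN2b libraries had 22 and 31 (26.5 ± 6.36, SD, n = 2), while IgG had 6, 5 and 7 (6 ± 1, SD, n = 3). DN1 spanned values from the LSK range up to that of DN2a, and no IgG library reached any other group. Scaled to 10000 peaks of a list, LSK averaged 2.26 ± 0.447 (SD, n = 3) and IgG 1.66 ± 0.182 (SD, n = 3). DN1 averaged 2.08 ± 0.288, against 3.56 ± 0.132 for DN2a and 3.18 ± 0.566 for DN2b (SD, n = 2 each). On that scale every DN2 library, at 2.78 or more, lay above every other library, the highest of which was LSK replicate 3 at 2.73. With equal lengths there were 9, 6 and 9 peaks in LSK, 7 and 7 in DN1, 10 and 12 in DN2a, 11 and 11 in DN2b, and 5, 5 and 7 in IgG. The 4 DN2 libraries again lay above the other 8, while DN1 fell within the LSK range. These counts are sums over the locus and were not tested.

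Of the 46 sites, 41 (89.1%) had a peak in at least 1 Delta1-cultured library, close to the 86.0% of all DHSs, and the Delta1 lists, 6 of 12, include the longest. Peaks in Delta1 libraries only were found at 27 sites (58.7%) beside 45.6% of all DHSs, and in DN2 libraries only at 18 (39.1%) beside 23.6%. A peak in any LSK library was found at 18 sites (39.1%) beside 44.3%, in any IgG library at 8 (17.4%) beside 29.7%, and in LSK or IgG libraries only at 5 (10.9%) beside 14.0%. At equal lengths 5 of 17 sites (29.4%) had peaks in DN2 libraries only, beside 11.7% of 76538 DHSs. These shares were not tested. Sharing between libraries was near the background. Of the sites, 14 (30.4%) came from a single library, 6 of them from DN2b replicate 2, the longest list, against 32.7% of all DHSs, and 4 (8.70%) were found in all 12 libraries against 7.68%.

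**Figure D2:**
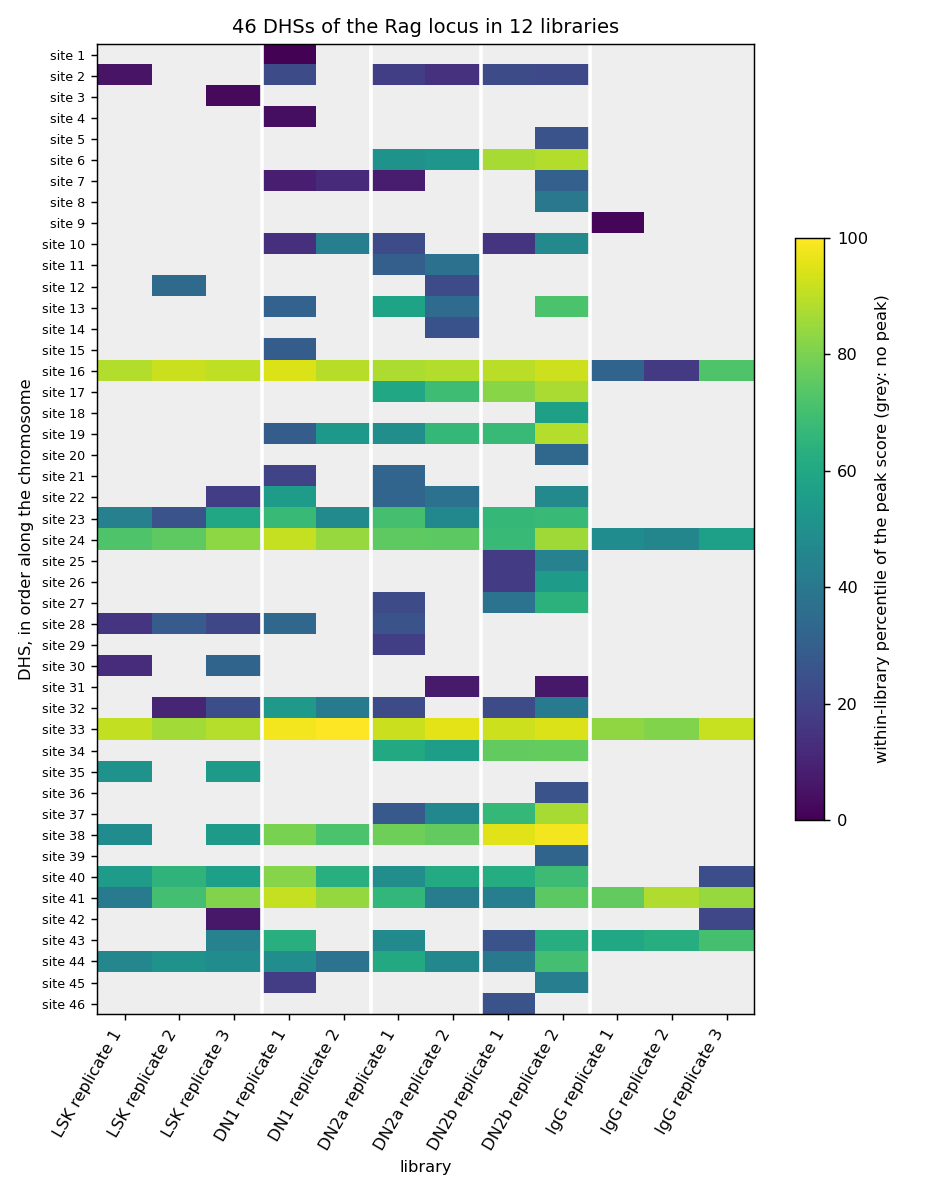
Heat map of the 46 DHSs (rows, in chromosomal order) in the 12 libraries (columns, grouped by white lines), coloured by the percentile of the peak score within the library, with grey where no peak was called. Sites 16, 24, 33 and 41 are coloured in all 12 columns, and sites 6, 17, 34 and 37 only in the 4 DN2a and DN2b columns.

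The Rag1 promoter had a peak in every Delta1-cultured library and in no LSK or IgG library. Site 19 is centred 0.13 kb upstream of the Rag1 start, between genes, and 2 start sites share it, since B230118H07Rik begins just upstream of Rag1 on the same strand. Its percentile was 29.4 and 53.4 in DN1, 49.3 and 66.5 in DN2a, and 67.9 and 88.9 in DN2b. Both DN2b values were above all DN1 and DN2a values, and the DN1 and DN2a ranges overlapped. The mean was 59.2 in the 6 Delta1 libraries and 0 in the other 6 (two-sided exact permutation test, p = 0.00216, the smallest that this design can give, adjusted p = 0.0394 over all DHSs). This pattern was known when the comparison was chosen, so the test describes it and is not independent support.

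In DN1 replicate 1 the Rag1 promoter peak ranked 67057 from the top, a rank larger than the number of peaks in any LSK or IgG list. The ranks in the other Delta1 libraries were 31726 (DN1 replicate 2), 34041 and 18962 (DN2a), and 19427 and 12170 (DN2b). At equal list lengths 4 of 6 Delta1 libraries kept the peak, at 1.86 in DN1 replicate 2, 41.4 in DN2a replicate 2, and 40.1 and 62.5 in DN2b. The difference was then 24.3 and no longer passed the test (exact permutation test, p = 0.0606). The DN2 libraries against the other 8 gave a difference of 57.8 (exact permutation test, p = 0.00404, adjusted p = 0.125), which did not pass after adjustment. For DN2 no DHS passed in the deposited lists, where even the smallest possible p had an adjusted p of 0.0784 in that test. The DN2 difference at the Rag1 promoter was 35.7 at equal lengths (exact permutation test, p = 0.0182, adjusted p = 0.163). In the upper 50% of each list it was 35.8 (exact permutation test, p = 0.0182).

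The Rag2 promoter was open in fewer libraries than that of Rag1. Its site 13 is centred 0.647 kb upstream of the Rag2 start, in an intron of B230118H07Rik. The percentile was 31.5 in DN1 replicate 1, 58.0 and 35.1 in DN2a, and 71.6 in DN2b replicate 2. DN1 replicate 2 and DN2b replicate 1 had no peak there, nor did any LSK or IgG library, so replicates of the same stage disagreed. The Delta1 difference was 32.7 (exact permutation test, p = 0.0606, adjusted p = 0.308) and the DN2 difference 37.2 (p = 0.0182, adjusted p = 0.257). Neither passed after adjustment, and for DN2 no DHS did. Site 13 had peaks in Delta1 libraries only, so these tests are a description. At equal lengths a peak remained in DN2a replicate 1 at 12.8 and in DN2b replicate 2 at 3.70. The peak lay outside a window of 500 bp around the start, within which no library had a peak for Rag2. Inside the Rag2 body, sites 14 and 15 were each seen in 1 library, at 25.3 in DN2a replicate 2 and at 29.4 in DN1 replicate 1.

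The anti-silencer window held a site with a peak in every DN2 library and in no other, a pattern that site 17, described below, shared. Site 6, 73.2 kb upstream of the Rag2 start, lies between GENCODE genes and overlaps an exon of the non-coding gene model Gm39887 in RefSeq. It was at 51.3 and 52.5 in DN2a and at 86.9 and 88.6 in DN2b, and had no peak in the other 8 libraries. The groups did not overlap, and DN2b exceeded DN2a by more than the distance between replicates of either. In DN2b its peak ranked 7865 and 12575 from the top, and in DN2a 32720 and 26845. In DN2b replicate 1 it was the 4th highest of the 21 locus sites with a peak, and in DN2b replicate 2 the 5th of 31. The DN2 difference was 69.8 (exact permutation test, p = 0.00202, the smallest possible, adjusted p = 0.0784). No DHS passed the adjusted threshold for DN2 in the deposited lists, where that was the smallest adjusted p. With equal lengths site 6 was at 0 and 16.9 in DN2a and 75.6 and 61.2 in DN2b. The other DHSs of that window, sites 4 and 5, were each seen in 1 library, at 3.56 in DN1 replicate 1 and at 25.5 in DN2b replicate 2.

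The gap between the 3′ ends of the genes held 1 DHS, site 17, in an intron of B230118H07Rik and 12.6 kb downstream of the Rag2 start. It had a percentile of 59.5 and 68.9 in DN2a and of 82.3 and 87.4 in DN2b, and no peak in LSK, DN1 or IgG. The difference was 74.5 (exact permutation test, p = 0.00202, adjusted p = 0.0784). All 4 DN2 libraries kept it at equal lengths, at 15.8 and 45.5 in DN2a and 67.0 and 57.5 in DN2b. Sites 6 and 17 are among the DHSs only through their DN2 peaks, so their p-values are a description. Whether site 17 is the silencer known between these genes cannot be read from a peak list.

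No DHS was centred in the Erag window, 18 to 27 kb upstream of Rag2, in any library. The nearest, site 10, was just outside it at 27.3 kb, with 13.9 and 42.9 in DN1, 23.1 and no peak in DN2a, and 15.3 and 47.1 in DN2b, and it was lost from every list at equal lengths. The D3 window held site 11, at 30.3 and 37.6 in DN2a and in no other library. Upstream of Rag1, site 22 (3.53 kb) was at 18.6 in LSK replicate 3, 55.2 in DN1 replicate 1, 32.6 and 37.6 in DN2a and 47.1 in DN2b replicate 2. Sites 20 and 21, nearer to Rag1, had peaks in 1 and 2 libraries, none above 33.8.

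**Figure D3:**
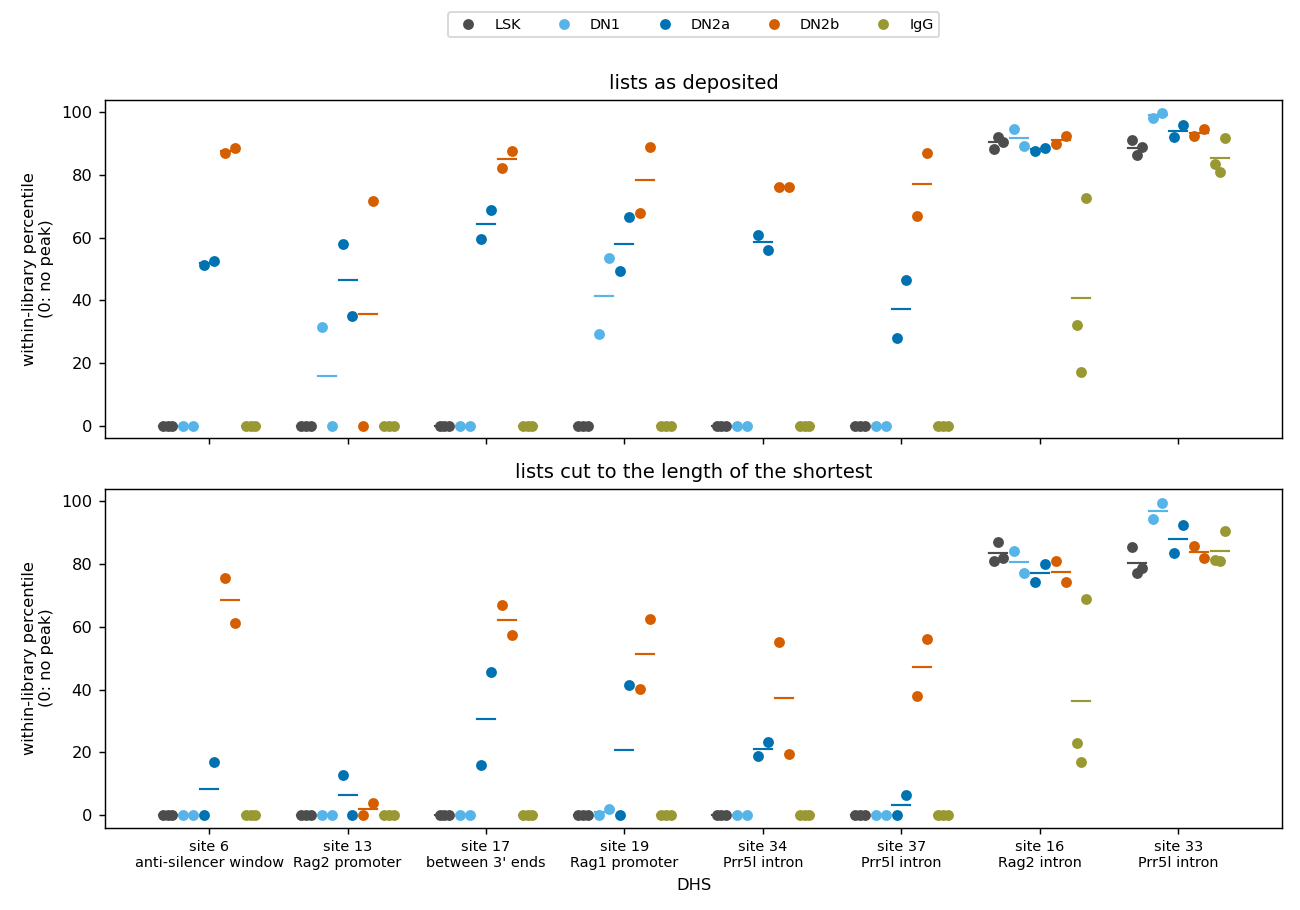
Percentile of the peak score within each library (vertical axis, 0 where no peak was called) at 8 DHSs, with points for libraries, short lines for group means and colours for groups, for the lists as deposited (upper panel) and cut to 32952 peaks (lower panel). Sites 6, 17, 19, 34 and 37 sit at 0 in all LSK and IgG libraries and rank highest on average in DN2b, and in the lower panel DN1 at site 19 falls to 0 and 1.86.

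Set beside all DHSs, the share of locus sites gained was larger than the background in DN2 and close to it in Delta1 culture as a whole. A site was called gained where all libraries of the named group had a peak and none of the compared libraries did, and lost in the reverse case. In the Delta1 libraries against LSK and IgG, 1 site was gained, the Rag1 promoter (2.17% of the sites), where 1.90% of all DHSs were, and 0 sites were lost against 0.0987% of all. In DN2 against LSK, DN1 and IgG, 4 sites were gained (sites 6, 17, 34 and 37, 8.70% of the sites) against 0.758% of all DHSs, and 0 were lost against 0.179%. At equal lengths the Delta1 gain was gone, and 2 of 17 sites (17 and 34, 11.8%) were gained in DN2 against 1.99%. Of the 4 DN2 sites, 1 lies on the Rag2 side (site 6), 1 between the genes (site 17) and 2 on the Rag1 side (sites 34 and 37), and their share of the locus was not tested.

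By stage, DN1 against LSK gained 3 sites (7, 10 and 19, 6.52%) beside 7.77% of all DHSs and lost 0 beside 1.17%. In the deposited lists the first step was thus near the background. At equal lengths it gained 0 of 17 sites beside 5.61% and lost 1 beside 4.37%. In the upper 50% of each list it gained 0 of 21 sites beside 10.5%. DN2b against DN1 gained 7 sites (15.2%) beside 4.24% and lost 0 beside 5.27%. The 7 were sites 6, 17, 34 and 37, and sites 25, 26 and 27 in an intron of Traf6. DN2b against LSK gained 9 (19.6%) beside 9.06% and lost 1, site 28 in Traf6, beside 2.73%. DN2b against IgG gained 14 (30.4%) beside 17.3% and lost 0 beside 3.41%. IgG against LSK gained 0 beside 2.51% and lost 3 (sites 23, 28 and 44, 6.52%) beside 7.87%. At equal lengths DN2b gained 4 of 17 sites against DN1 (23.5%, beside 6.76%), 5 against LSK (29.4%, beside 9.45%) and 6 against IgG (35.3%, beside 13.6%). It then lost 0, 1 and 1 in the same order. IgG against LSK then gained 1 (beside 7.27%) and lost 1 (beside 7.06%). These pairs have 2 or 3 libraries a side and share libraries between them, so no p is given. Several of these counts moved with 1 library, and so did the background. Without DN2b replicate 1, which leaves DN2b as the longest list alone, the gains became 14 against DN1 (31.1%, beside 22.8% of all DHSs), 19 against LSK (42.2%, beside 32.5%) and 25 against IgG (55.6%, beside 45.9%). Without DN2b replicate 2 they were 8 (20%, beside 6.73%), 10 (25%, beside 12.6%) and 15 (37.5%, beside 22.4%). Without DN1 replicate 2 the gain of DN1 over LSK became 9 (19.6%, beside 21.2%). Without LSK replicate 2 the sites lost were 2 in DN1 (beside 1.93% of all DHSs), 3 in DN2b (3.78%) and 6 in IgG (10.2%). Without DN1 replicate 2, DN2b lost 5 sites against DN1 (10.9%, beside 15.2%), and without DN2a replicate 2 the Delta1 gain was 2 (4.44%, beside 2.36%).

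Both DN2-gained sites on the Prr5l side lie in introns of that gene, 102 and 106 kb upstream of the Rag1 start. Site 34 was at 60.9 and 56.2 in DN2a and at 76.0 and 76.2 in DN2b. At equal lengths all 4 libraries kept it, at 18.8, 23.3, 55.2 and 19.5 in the same order. Site 37 was at 27.9 and 46.5 in DN2a and at 66.8 and 87.1 in DN2b, and 3 of 4 libraries kept it at equal lengths. In all 4 DN2-gained sites (6, 17, 34 and 37) both DN2b values were above both DN2a values in the deposited lists, and at equal lengths the ranges overlapped at site 34. Sites 34 and 37 were named by that call, so their values are a description.

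Beside site 37 lies site 38 (chr2:101756157-101756386, Prr5l intron), singled out after its values were seen because it ranked highest of all locus sites in both DN2b libraries. It was at 48.6 and 54.6 in LSK replicates 1 and 3 and absent from replicate 2, at 79.8 and 71.7 in DN1, 77.8 and 75.9 in DN2a, 95.4 and 98.4 in DN2b, and absent from IgG. Every Delta1 library was above every LSK and IgG library. The Delta1 difference was 65.97, and 58.2 at equal lengths, given as a description because the site was chosen for its DN2b values. Over the whole locus, sites 19, 33 and 38 passed the adjusted threshold for Delta1 in the exact permutation test, 3 of 46 sites (6.52%), near the 5.50% of all DHSs that passed. For DN2, 9 sites had an unadjusted p under 0.05 and 0 an adjusted one, and over all DHSs 10.7% and 0 did. At equal lengths sites 17, 34 and 38 were among the 5.18% of 76538 DHSs that passed for DN2 in that test. Sites 17 and 34 had peaks in DN2 libraries only and site 38 was chosen for its DN2b values, so nothing is read from their number.

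A second group, sites 16, 24, 33 and 41, had a peak in all 12 libraries as deposited. Site 33 in a Prr5l intron was at 91.0, 86.3 and 88.8 in LSK, 98.1 and 99.7 in DN1, 92.0 and 95.8 in DN2a, 92.3 and 94.6 in DN2b, and 83.5, 80.9 and 91.7 in IgG. All 6 Delta1 libraries were above all LSK and IgG libraries, with a difference of 8.40 (exact permutation test, p = 0.00216, adjusted p = 0.0394), which at equal lengths was 7.22 and did not pass (p = 0.0606). Site 16, inside the Rag2 intron, where 3 GENCODE transcripts of B230118H07Rik start, was at 87.6 to 94.6 in the 9 LSK and DN libraries and at 32.3, 17.03 and 72.6 in IgG. This DHS, within the Rag2 gene but at starts of the overlapping gene, was among the highest of the locus in LSK. Neither Rag promoter had a peak in LSK. Site 16 also overlaps an exon of the RefSeq gene Iftap, and any tie to Rag2 was not tested. Site 24, the Traf6 promoter, ran from 45.9 in IgG replicate 2 to 91.1 in DN1 replicate 1, and site 41 in Prr5l from 41.2 to 91.1. Site 41 was lower on average in DN2, with means of 54.2 in DN2a and 58.8 in DN2b. Its means were 64.0 in LSK, 87.7 in DN1 and 82.8 in IgG. At equal lengths 10 libraries kept site 41, and its DN2 difference was -51.5 (exact permutation test, p = 0.00606, adjusted p = 0.0895). Outside that group, site 43, also in Prr5l, was at 60.1, 62.3 and 70.5 in IgG, 44.3 in LSK replicate 3, 63.2 in DN1 replicate 1, 47.4 in DN2a replicate 1 and 25.6 and 62.2 in DN2b. It was absent from the other 4 libraries, and at equal lengths only the 3 IgG libraries kept it. The GENCODE start of Prr5l itself lies outside the region and had no peak in any library.

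A few sites were absent from IgG alone. Site 23, 15.98 kb upstream of Rag1, and site 44, in Prr5l, had a peak in all 9 LSK and DN libraries and in no IgG library, a pattern seen in 2 of 46 sites (4.35%), near the 3.17% of all DHSs. Site 23 was at 43.7, 25.6 and 59.8 in LSK, 67.7 and 47.4 in DN1, 70.6 and 46.5 in DN2a, and 66.8 and 67.7 in DN2b. IgG lists are the shortest, and at equal lengths site 23 was left in 6 and site 44 in 5 libraries.

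Most of the other recombination genes had open promoters in every library, LSK and IgG included. In a list of 18 genes, 13 promoters (among them Prkdc, the DNA-dependent kinase, Dclre1c, the Artemis nuclease that opens hairpins, Lig4 and Xrcc4 of the ligase complex, and the DNA-bending proteins Hmgb1 and Hmgb2) had a peak in all 12 libraries, where 36.2% of 21755 protein-coding promoters did. Dclre1c was at 95.9 or above in each library and Prkdc at 95.7 or above. In Polm, a polymerase of end joining, the range was 84.8 to 99.3 in the LSK and DN libraries and 54.9 to 67.7 in IgG. Rag1 was the single promoter of the list gained with Delta1 (0.336% of all promoters were), and 0 of 18 were gained at DN2 (0.0735% of all). Dntt, which encodes the terminal transferase, had no peak near its start in any library. Xrcc6, which encodes a Ku subunit, had peaks at 11.9 in DN1 replicate 2 and at 13.8 in DN2a replicate 1 only. Starts are those at the 5′ end of the gene record, and other starts of these genes were not searched.

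Of 17 regulators tied to Rag expression or to early lymphoid fate, 5 were open in all 12 libraries (Tcf3, Runx1, Myb, Foxo1 and Spi1), no larger a share than the 36.2% of all promoters, and 1 was gained with Delta1. That was Tcf7, the gene for the T lineage factor TCF1, at 43.6 and 45.2 in DN1, 59.5 and 59.5 in DN2a, and 54.3 and 73.0 in DN2b, with no peak in LSK or IgG (0.336% of all promoters were gained). At equal lengths Tcf7 had no peak in DN1 and was at 15.8 and 29.0 in DN2a and 14.7 and 8.51 in DN2b. It was then gained at DN2, and the 1 regulator gained with Delta1 was Bcl11b. Of all promoters, 0.198% were then gained at DN2 and 0.193% with Delta1. Tcf3, which encodes E2A, an activator that binds E-boxes, was at 89.6 or above in every library. Bcl11b, a T lineage commitment factor, was at 27.3, 6.12 and 21.3 in LSK, 69.7 and 61.8 in DN1, 96.5 and 95.2 in DN2a and 97.4 and 96.4 in DN2b, and absent from IgG. Its LSK, DN1 and DN2 values did not overlap. Spi1, the gene for PU.1, ran the other way, at 91.7 or above in LSK and IgG and at 66.8 to 89.8 in the Delta1 libraries. Gata3 had a peak at this start in DN2b replicate 2 alone (65.9), and Lef1, Ikzf1 and Pax5 had none.

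**Figure D4:**
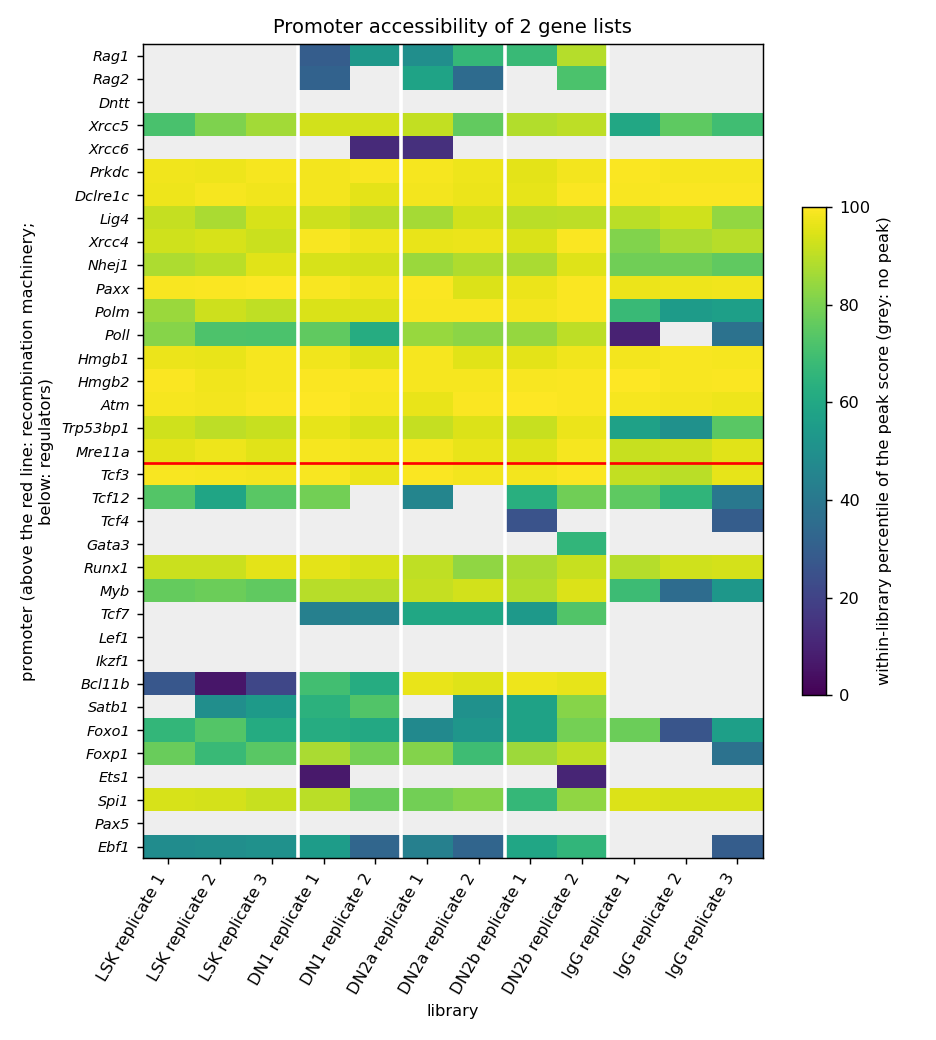
Heat map of promoter accessibility for 18 genes of V(D)J recombination (above the red line) and 17 regulators (below it) in the 12 libraries, coloured by the percentile of the highest peak within 1 kb of the gene start, with grey for no peak. Rag1 and Tcf7 are coloured in the 6 Delta1 columns only, while 13 recombination genes and 5 regulators are coloured in every column.

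The promoters whose pattern was most like that of Rag1 were found by Pearson correlation of percentiles over the 12 libraries, among 12191 promoters open in at least 3. The closest was B230118H07Rik (r = 1), whose start beside that of Rag1 has the same peak. Only that start was compared. Other starts of this gene lie in a DHS inside the Rag2 intron that had a peak in all 12 libraries. Next came Arhgef6, an exchange factor for small GTPases (0.99), Xcl1, the lymphotactin gene (0.99), Gimap7, a GTPase of lymphocytes, and the overlapping model Gm28053, which share 1 peak (0.99), and Cfap97d2 (0.99). These 12 points share libraries and list lengths, and 112 of the 12191 promoters had r above 0.9. At equal lengths r was 0.96 for Arhgef6, 0.93 for Xcl1, 0.94 for Gimap7 and 0.85 for Cfap97d2, and among the 6 only B230118H07Rik, through the shared peak, was still one of the 6 closest.

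The labelled identity of the cells was checked at marker promoters. Il2ra, which encodes CD25, and the T cell receptor partners Cd3e and Cd3g had peaks in all 4 DN2 libraries and in no other. Of 7 early T markers, 5 or 6 were open in DN2 libraries, 0 to 2 in LSK, 2 in DN1 and 0 in IgG, and Ptcra had no peak in any. Among B lineage markers, the defining Pax5 and Cd79a had no peak in any library, while Vpreb1 was open in all 12, Ebf1 in 10 and Igll1 in DN2b replicate 2. Of 3 natural killer markers, 0 to 2 were open in LSK, 1 or 2 in the Delta1 libraries and 0 in IgG, with Ncr1 at 0 throughout. Of 6 myeloid markers, 1 or 2 were open in LSK, 2 in each Delta1 library and 2 to 4 in IgG, with Mpo and Elane open in IgG replicate 3 alone. At equal lengths the myeloid counts were 1 or 2 in LSK, 1 and 1 in DN1, 2 and 1 in DN2a, 0 and 0 in DN2b, and 2 to 4 in IgG. Of 3 mast cell and basophil markers, 1 was open in each LSK library, 2 in each Delta1 library and 0 or 1 in IgG. Of 3 erythroid markers, 2 were open in each LSK library, 2 or 3 in the Delta1 libraries and 0 in IgG. At equal lengths the erythroid counts were 1, 2 and 0 in LSK, 0 or 1 in the Delta1 libraries and 0 in IgG. Of 5 stem and progenitor markers, 3 or 4 were open in LSK, 2 or 3 in the Delta1 libraries and 1 or 2 in IgG. Among them Kit was open in all 12 libraries, and Ly6a, the gene for SCA1, had no peak at its start in any, LSK included. These counts are from the deposited lists, whose lengths differ, except where equal lengths are named. At equal lengths early T markers were open at 5 or 6 in DN2 libraries, 1 or 2 in DN1, 0 or 1 in LSK and 0 in IgG. No share of all promoters open in each library is given beside the marker counts. The counts differed between the groups, and their part in the values at the Rag locus was not tested.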

How the data were processed

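DNase-seq was analysed in 12 libraries grouped by their labels. After adapter removal, the authors mapped read pairs to mm10 using bwa (version 0.7.12, with SAMtools 1.2 also named in the processing notes) and called peaks in each library on its own by hotspot2, with the false discovery rate set to 0.05. The deposited score of each 150-bp peak is a whole number from 1 to 150 whose meaning is not stated, and it served here only as a rank within a list, ties taking their mean rank. The authors' own test of reads was not used here. Replicate numbers follow accession order and only name libraries. The methods state separate LSK isolates for the replicates of a stage, and the labels do not say which isolate gave which library.

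Overlapping peaks (at least 1 bp) on autosomes and the X chromosome were merged. A DHS belonged to the locus when its midpoint lay within 150 kb of the gene pair, and a promoter was open when a peak's midpoint lay within 1 kb of the 5′ end of a GENCODE M21 gene record (an earlier release was used by the study). Differences in mean percentile, with 0 for no peak, were tested by two-sided exact permutation over libraries with Benjamini-Hochberg adjustment over all DHSs. The code was tested on simulated data. Named sites were those at both Rag promoters, in the distal windows (68 to 90, 18 to 27 and 5 to 11 kb upstream of Rag2, 1 to 10 kb upstream of Rag1, and between the 3′ ends), those called gained or lost for Delta1 or DN2, and the 3 of the rest with the highest median percentile. Further sites are named where they make up a count. The 6 promoters with the highest correlation with Rag1 were named. One marker gene is not reported here. Identical peaks listed more than once (42 over all lists, 0 at the locus) were counted as listed. The members, lists, windows and comparisons were chosen with earlier results of these data known, the pattern at the Rag1 promoter among them. Alternatives were equal list lengths, the upper 50% of each list, other merging, locus and promoter windows, and each library left out in turn. Python 3.11.15, numpy 2.4.6, pandas 2.3.3, scipy 1.17.1 and pysam 0.24.0 were used.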

Additional observations from a re-analysis of the deposited data

How the results depend on the processing

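The values rest on peak calls whose depth is unknown, and both list length and single libraries moved the counts. At equal list lengths, of 17 sites with a peak, those gained were 0 for Delta1 (1.87% of all DHSs), 2 for DN2 (1.99%), 0 for DN1 over LSK (5.61%), 4 for DN2b over DN1, 5 for DN2b over LSK, 6 for DN2b over IgG and 1 for IgG over LSK (7.27%), and 1 site (5.88%) was lost in DN1 against LSK (4.37% of all DHSs), in DN2b against LSK (7.31%), in DN2b against IgG (10.2%) and in IgG against LSK (7.06%). As shares of the 17 sites the gains were 23.5% from DN1 to DN2b (6.76% of all DHSs), 29.4% from LSK to DN2b (9.45%) and 35.3% in DN2b against IgG (13.6%), larger shares than in the lists as deposited. In the upper 50% of each list, with 21 sites, the gains and the share of all DHSs were 0 (3.00%) for Delta1, 3 (1.39%) for DN2, 0 (10.5%) from LSK to DN1, 4 (5.54%) from DN1 to DN2b, 5 (11.8%) from LSK to DN2b, 8 (21%) in DN2b against IgG and 1 (3.16%) from LSK to IgG, with 0 lost from LSK to DN2b (3.19%) and 1 from LSK to IgG (9.78%). Site 37 then had a DN2 difference of 26.9 (exact permutation test, p = 0.0909). A locus window of 100 kb left 2 DN2 gains of 32 sites (6.25%, beside 0.758% of all DHSs). Mean peaks at the locus at equal lengths were 8 in LSK, 7 in DN1, 11 in DN2a and 11 in DN2b, and in the upper 50% they were 6.33, 8.5, 10 and 14.5, with 3.67 in IgG.

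The Rag1 promoter difference for Delta1 was 24.3 at equal lengths and 25.6 in the upper 50% (exact permutation test, p = 0.0606 in both). That of Rag2 for DN2 was 4.11 and 14.8, and with a promoter window of 500 bp those of Rag2 for Delta1 and DN2 were both 0. None of these had an unadjusted p under 0.05. No promoter of the recombination list was gained with Delta1 (0) under either shortening, where 0.193% of all promoters were at equal lengths. In the upper 50%, 3 regulators were open in all libraries. No share of all promoters is given for the upper 50%, so nothing is read from that count. Of the 6 promoters most like Rag1, 1 stayed among the 6 at equal lengths, the gene that shares the Rag1 peak.

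Each library was left out in turn, and the range of the share of all DHSs is given in brackets after each count. Gains were 1 to 2 for Delta1 (1.94% to 2.61%), 4 to 5 for DN2 (0.768% to 1.53%) and 3 to 9 from LSK to DN1 (8.79% to 21.2%). They were 7 to 14 from DN1 to DN2b (4.98% to 22.8%) and 9 to 19 from LSK to DN2b (9.91% to 32.5%). DN2b against IgG gained 14 to 25 (18.3% to 45.9%). LSK to IgG gained 0 to 1 (2.70% to 3.51%), the 1 without LSK replicate 3. Losses were 0 to 2 from LSK to DN1 (1.38% to 3.38%) and 0 to 5 from DN1 to DN2b (5.76% to 15.2%). They were 1 to 3 from LSK to DN2b (2.91% to 6.40%) and 3 to 6 from LSK to IgG (8.66% to 10.5%). Without DN1 replicate 1, 1 site was lost from LSK to DN1 (2.33%, beside 3.38%), and without DN2b replicate 2, 1 from DN1 to DN2b (2.5%, beside 13.1%). The Rag1 promoter difference ran from 53.3 to 65.2 for Delta1 and from 50.9 to 64.1 for DN2, with every unadjusted p under 0.05. Its site had a peak in every Delta1 library and in no other, so leaving out a library could not undo that separation. These p-values are therefore a description. The Rag2 promoter difference ran from 24.9 to 39.2 for Delta1. At 39.2 it passed without DN1 replicate 2 or DN2b replicate 1 (exact permutation test, p = 0.0152), the Delta1 libraries with no peak there. All its peaks are in Delta1 libraries, so that outcome follows from which library was left out and is a description. For DN2 the Rag2 difference ran from 27.1 to 50.9. It did not pass at 31.6, 39.3 and 27.1 without DN2a replicate 1, DN2a replicate 2 and DN2b replicate 2 (exact permutation test, p = 0.0545). Of 378 recomputed values, 321 kept their direction and side of the threshold or stayed within the allowed range. The rest were 45 that moved, 10 that weakened and 2 that strengthened, and none of the tested differences among them turned negative. The order of LSK and DN1 did turn at equal lengths. Mean locus peaks were 13 in LSK and 17.5 in DN1 as deposited, and 8 and 7 at equal lengths. DN1 over LSK went from 3 sites gained and 0 lost to 0 gained and 1 lost. The cause of these shifts was not tested. No paired analysis was possible because the labels do not say which LSK isolate gave which library.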
